A study of Arabidopsis thaliana with 8 samples.

Results

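The genes described here were high in a single array of the series, the one labelled wild type 4. A probe set naming 1 gene was taken when its log2 signal in wild type array 4 was at least 2 above the mean of wild type arrays 1 to 3 and at least 1 above every array labelled fbn5-1. Of 16746 probe sets naming 1 gene, 164 met both thresholds, or 0.979%. Of these, 10 carried names set aside beforehand (STZ, ORA47, CML38, OPCL1, PUB23, PUB22, WRKY22, BZIP60, CML37 and PUB24), which left 154 members at 154 different loci. Set aside were single names and all symbols that start with CML, CPK, CIPK, CBL, CNGC, CRK, WAKL, PERK, CYP, UGT, GST, XTH or EXP. This took genes out of the classes of calcium sensing, ubiquitin ligases and transcription regulators counted below. The members were thus chosen by the signal of wild type array 4 set against the other 7 arrays, and these values are given below as a description without a test. Outside the names set aside, the rule left free which kinds of gene they are and where they lie. It also left free where the arrays labelled fbn5-1 fall at or below the ceiling it set.

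The series measured leaf RNA of 8 samples of Arabidopsis thaliana on Affymetrix arrays, 4 from the wild type Columbia-0 and 4 from the fbn5-1 line in the same background. fbn5-1 carries a T-DNA insertion in FIBRILLIN5, a plastid lipid-associated protein. All plants were 3 weeks old and untreated, grown under 16 h light and 8 h dark at 25 °C (60% humidity) on 0.5-strength Murashige and Skoog medium with 1% sucrose, and 200 ng of Trizol-extracted RNA was labelled per array. The labels do not say whether replicates came from separate plants, so p-values measure how far these 8 samples spread, and that spread may be technical.

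FBN5 (AT5G09820) had log2 signals of 3.54, 3.35 and 3.43 in wild type arrays 1 to 3, 5.15 in wild type array 4, and 4.71, 4.52, 4.76 and 4.58 in the arrays labelled fbn5-1. Its signal was thus higher in all 4 arrays labelled fbn5-1 than in wild type arrays 1 to 3, and highest in wild type array 4. Whether the probe set lies before or after the insertion is not given in the sources used here, so it does not check the labels, and groups are named below as labelled.

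Plants answer wounding, touch, cold shock, microbial molecules and a sudden rise in cell calcium with a fast first wave of transcription. Textbook members of that wave are transcription factors of the ERF, WRKY, zinc-finger and VQ families, calcium sensors, ubiquitin ligases, protein phosphatases that restrain mitogen-activated protein kinases, and immune receptors with a Toll/interleukin-1 receptor (TIR) domain. Many of these messages are short-lived and nearly silent in a resting leaf. For most loci below the files give only the locus number, and the protein family named beside it is general knowledge of the Arabidopsis annotation.

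Wild type array 4 stood apart from the other 7 arrays also in probe sets that did not meet the rule. It had 305 one-gene probe sets at least 1 log2 unit above all other arrays, against 1 to 29 in any other array, and 53 at least 1 below, against 0 to 9. The 305 include probe sets among the 164 that met both thresholds, so the rule fixed part of that count. The 53 lie outside the rule. Its log2 signals correlated with those of the other wild type arrays at Pearson r of 0.961 to 0.964, while wild type arrays 1 to 3 reached 0.992 among themselves. Array medians were alike, from 3.42 to 3.49. Of 9 photosynthesis genes listed as a leaf check, 8 were tested, and in wild type array 4 they lay between -0.40 and 0.05 of the mean of wild type arrays 1 to 3. Of the 2 root genes listed, PYK10 read 9.23, 9.70 and 9.34 in wild type arrays 1 to 3, 6.84 in wild type array 4, and 9.72, 9.26, 9.59 and 9.36 in the arrays labelled fbn5-1. The other, EXPA7, was dim and read 2.51, 2.64 and 2.58, then 2.41 in wild type array 4. Tested genes listed for guard cell, vascular, pollen and trichome tissue lay between -0.33 and 0.18 of wild type arrays 1 to 3 there. The part of a different tissue mix in the members' values was not tested, and in leaf RNA fewer cells of a type and less RNA per cell cannot be told apart.

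**Figure D1:**
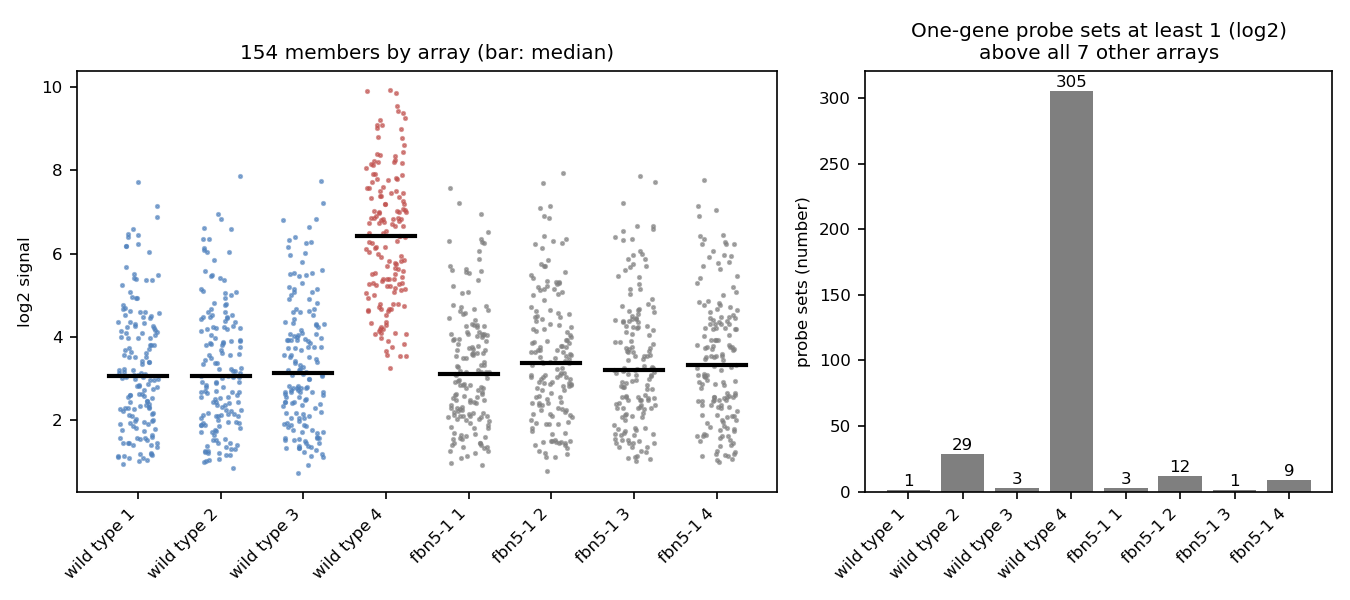
Left, log2 signal of the 154 members in each of the 8 arrays, 1 point per member, with a bar at the median. The median was 6.42 in wild type array 4 and between 3.06 and 3.39 elsewhere. Right, the number of one-gene probe sets at least 1 log2 unit above all 7 other arrays, which was 305 for wild type array 4 and at most 29 for another. The 305 include probe sets that met the rule.

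In wild type array 4 the members lay in the upper part of the signal range, and elsewhere near its middle. Their median log2 level was 3.09 over the means of wild type arrays 1 to 3 and 6.42 in wild type array 4. The difference, called the step below, had a median of 2.82 on the log2 scale, or 7.05-fold, and ran from 2.0 to 6.09, or 68.3-fold. It was at least 3 for 67 members, at least 4 for 20 and at least 5 for 10. A weak starting signal was common. In wild type arrays 1 to 3, 67 members had a mean below 2.79, the 40th percentile of probe set means used as the filter on low values, and 60 were below it in the arrays labelled fbn5-1 as well. None was below it in wild type array 4. With 16 added to the linear signal before taking log2, which shrinks differences between dim values, 57 of the 154 still met the rule.

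The members just inside the first threshold were AT1G73510, AT1G54050 and AT1G56140 at 2.0, 2.0 and 2.02, and those just outside were AT5G46710, AT2G20560 and AT5G13100 at 1.9967, 1.99 and 1.98. For the second, AT3G56360, AT4G20860 and AT3G12910 lay inside at 1.05, 1.10 and 1.11 above the highest array labelled fbn5-1, and AT1G19020 and AT5G41750 lay outside at 0.85.

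The arrays labelled fbn5-1 held most members near the level of wild type arrays 1 to 3. The difference of the fbn5-1 mean from the mean of wild type arrays 1 to 3 had a median of 0.13 on the log2 scale, against 0.02 over all one-gene probe sets, with quartiles of -0.11 and 0.36. It was within 0.5 for 128 members, above 0.5 for 18 and below -0.5 for 8. As a share of the step seen in wild type array 4, the median was 4.05% and the highest 38.5%, both on the log2 scale. All 4 arrays labelled fbn5-1 lay above wild type arrays 1 to 3 for 22 members, where 11.1% of all one-gene probe sets did so. They lay below for 13 members, where 11.7% did so, and overlapped for 119. The rule used these same arrays, and its ceiling limited how high the fbn5-1 values could be, so nothing is read from these counts.

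Within the group labelled fbn5-1 the members were not evenly spread. Array 2 was the highest of the 4 for 62 members, or 40.3%, against 26.5% of all one-gene probe sets. Array 1 was the highest for 19, or 12.3%, against 28.8%, and the lowest for 67. The median difference from the mean of wild type arrays 1 to 3 was 0.01 in array 1, 0.22 in array 2, 0.13 in array 3 and 0.11 in array 4. Among wild type arrays 1 to 3, array 3 was the highest for 77 members, or 50.0%, against 31.8%. The SD over the 4 arrays labelled fbn5-1 had a median of 0.25 over members and 0.16 over all one-gene probe sets.

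**Figure D2:**
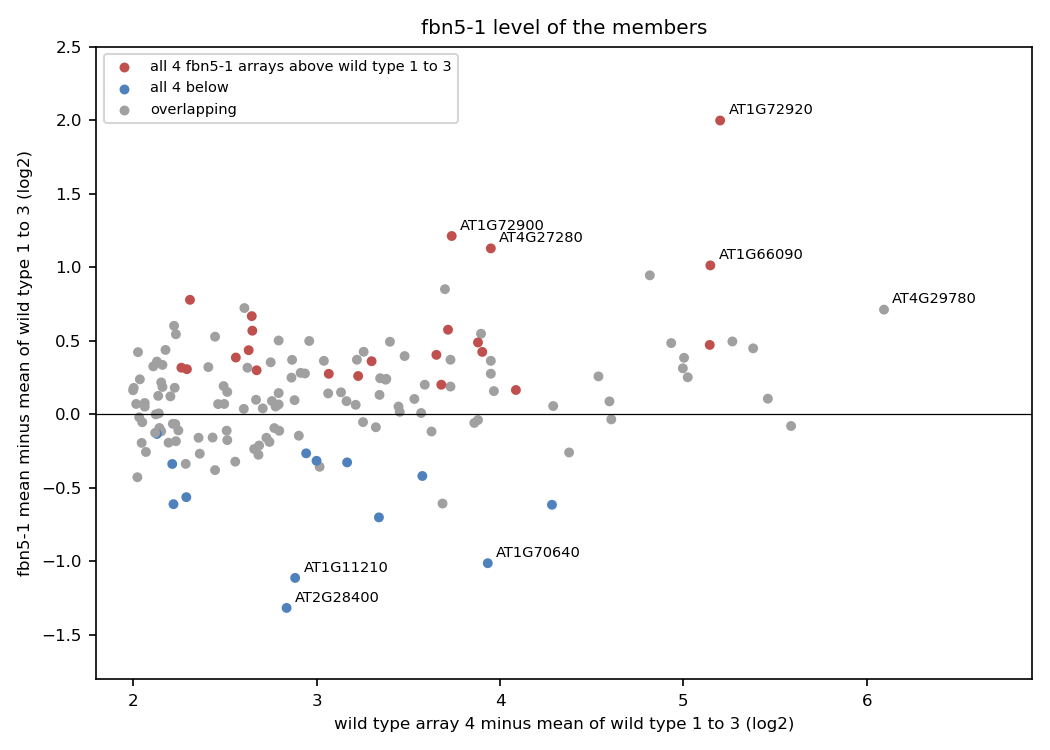
Each point is 1 of the 154 members. The horizontal axis is wild type array 4 minus the mean of wild type arrays 1 to 3 and the vertical axis the fbn5-1 mean minus that same mean, both in log2. Of the points, 128 lie within 0.5 of 0 on the vertical axis, AT1G72920 is highest at 2.0 and AT2G28400 lowest at -1.32.

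The comparison of the arrays labelled fbn5-1 with wild type asks which genes the mutant line changes. It was fitted with limma over 17147 probe sets that passed the filter, among them 107 members, of which 89 would have passed without wild type array 4. With all 8 arrays, 0 members were called higher and 1 lower at an adjusted p under 0.05, where 8.22% and 8.55% of all tested probe sets were called (16.8% in either direction). At an unadjusted p under 0.05 the members' counts were 0 and 5. The median SE of the difference was 0.60 for members and 0.13 for all tested probe sets with wild type array 4 in the wild type group. Without wild type array 4, limma called 8 members higher and 7 lower, where 9.54% and 12.9% of all tested probe sets were called (22.5% in either direction), and the members' median SE was 0.17. Every array in these fits also entered the rule, so the p-values below describe the fit.

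The 4 members with the highest fbn5-1 level relative to wild type arrays 1 to 3 were TIR-domain and calcium-binding genes. AT1G72920, a TIR-domain protein, read 4.30, 4.36 and 4.33 in wild type arrays 1 to 3, 9.53 in wild type array 4, and 5.55, 6.89, 6.66 and 6.22 in the arrays labelled fbn5-1. Its values in the arrays labelled fbn5-1 lay above wild type arrays 1 to 3 and below wild type array 4. The difference without wild type array 4 was 2.0 (SE 0.27, adjusted p = 0.00205 by limma). AT4G27280, an EF-hand calcium-binding protein, read 4.93, 5.14 and 5.14, then 9.02, then 5.61, 6.25, 6.67 and 6.27 in the same order. All 4 arrays labelled fbn5-1 were above wild type arrays 1 to 3, by 1.13 on average (adjusted p = 0.0064 by limma). With wild type array 4 included, neither gene was called. AT3G46600, a GRAS-family transcription regulator, read 6.47, 6.58 and 6.64, then 9.21, then 6.94, 7.14, 7.72 and 7.13. It was well expressed in wild type arrays 1 to 3, and its fbn5-1 mean was 0.67 higher (adjusted p = 0.020 by limma without wild type array 4). The remaining members called higher in that fit were AT4G20860, AT4G29780, AT4G20830, AT3G57450 and AT2G30020, with differences of 0.47 to 0.78. Each of these 5 calls, and that of AT3G46600, was lost when single arrays were left out, AT3G57450 in 9 of 14 alternatives and AT2G30020 in 7 of 13.

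The 7 members called lower in that fit had steps of 2.29 to 4.28 in wild type array 4. AT2G28400, of the senescence regulator S40 family, read 4.61, 4.59 and 5.0 in wild type arrays 1 to 3, 7.57 in wild type array 4, and 3.62, 3.54, 2.96 and 3.55 in the arrays labelled fbn5-1. Its difference was -1.32 without wild type array 4 (adjusted p = 0.00222 by limma), and it was also the single member called with all 8 arrays (adjusted p = 0.0486 by limma). That call with all 8 arrays was lost in 12 of 14 alternatives, among them leaving out any array other than wild type 4, with adjusted p from 0.0411 to 0.117. AT1G11210, whose role is not stated here, read 4.22, 4.04 and 4.00, then 6.97, then 3.17, 2.92, 2.75 and 3.06. AT1G70640, a PB1-domain protein, read 4.11, 4.21 and 4.06, then 8.06, then 3.32, 2.99, 3.11 and 3.04. In both genes every array labelled fbn5-1 lay below every wild type array, with differences of -1.11 and -1.01 from wild type arrays 1 to 3 (adjusted p = 0.00139 and 0.00131 by limma). AT2G38790, AT1G21326, AT5G46500 and AT1G50740 had differences of -0.70, -0.61, -0.56 and -0.32. Of these, AT1G21326 lost its call in 11 of 14 alternatives, AT1G50740 in 10, AT5G46500 in 9 and AT2G38790 in 4 of 13.

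**Figure D3:**
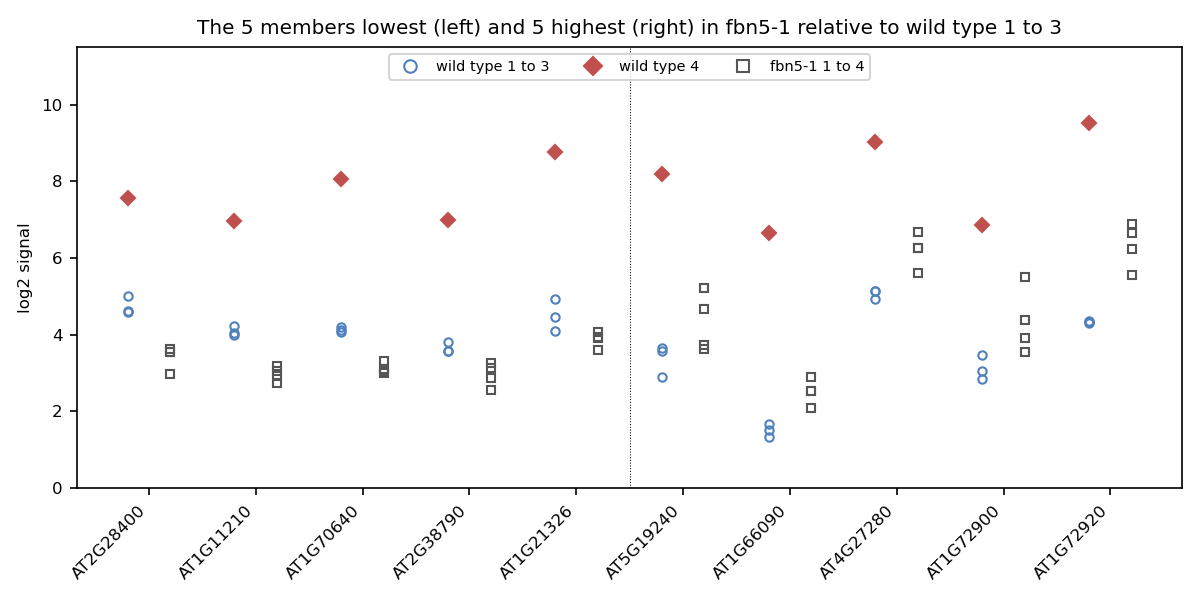
Log2 signal of the 5 members lowest and the 5 highest in the arrays labelled fbn5-1 relative to wild type arrays 1 to 3, 1 mark per array. In all 10 the diamond of wild type array 4 is the highest mark. The 5 at the left have every array labelled fbn5-1 below wild type arrays 1 to 3, and those at the right have them all above except AT5G19240.

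By protein family, 99 members were placed in 10 classes and 55 had no role stated. Class medians of the step in wild type array 4 ran from 2.31 for cell wall and secreted proteins to 3.70 for transporters and membrane proteins. Class medians of the fbn5-1 difference ran from -0.07 for metabolic enzymes to 0.34 for TIR-domain proteins. The ranges of all classes overlapped, and no difference between classes was tested. The share of each class among all one-gene probe sets was not computed. Whether any class is more frequent among the members is therefore not read from the class counts.

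**Figure D4:**
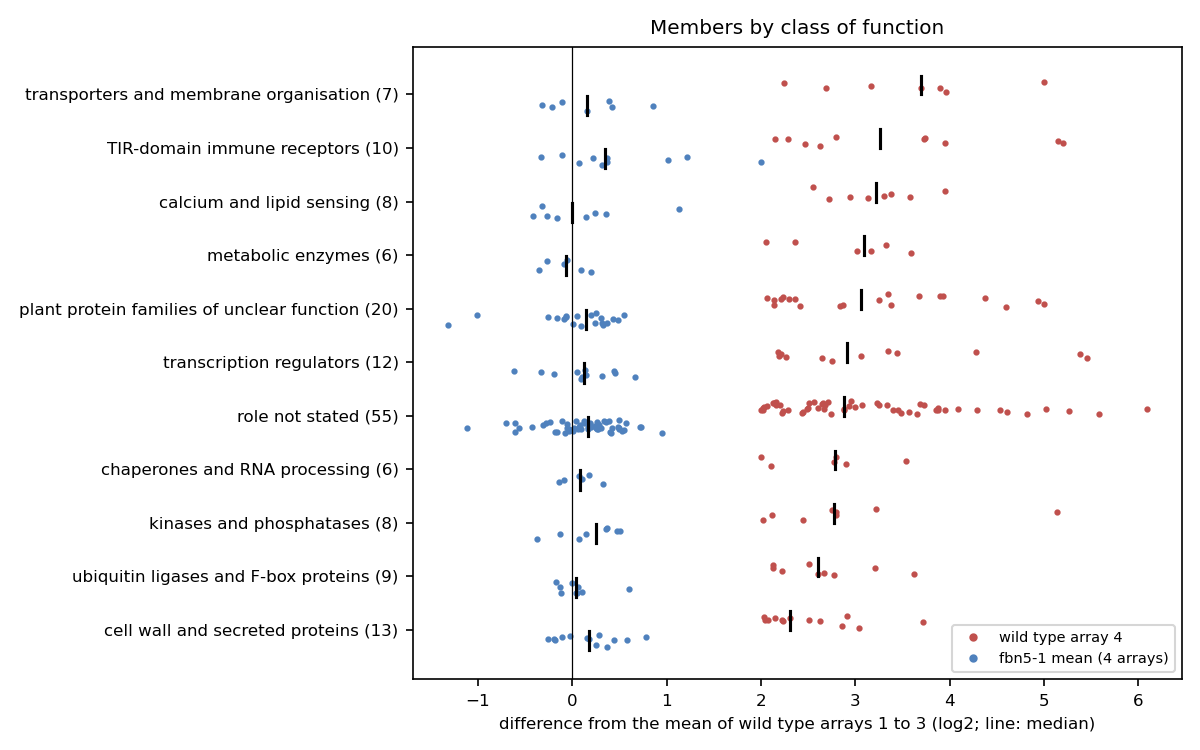
Members by class, with the number of members in brackets. Red points are wild type array 4 and blue points the fbn5-1 mean of 4 arrays, each minus the mean of wild type arrays 1 to 3 in log2, and short lines are class medians. Red points start at 2.0 by the rule, and blue medians lie between -0.07 and 0.34.

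Immune receptors with a TIR domain made up 10 members. These proteins sense pathogen effectors or relay that signal, and the plain TIR and TIR-NBS forms lack the leucine-rich repeats that recognise effectors. Beside AT1G72920, AT1G66090 of the TIR-NBS type read 1.66, 1.52 and 1.33 in wild type arrays 1 to 3, 6.65 in wild type array 4 and 2.09, 2.90, 2.54 and 2.54 in the arrays labelled fbn5-1. AT1G72900 read 2.83, 3.06 and 3.48, then 6.86, then 3.92, 5.49, 4.39 and 3.55. In both, all arrays labelled fbn5-1 were above wild type arrays 1 to 3, although array 4 exceeded them by little in AT1G72900. AT1G66090 was dim and not tested, and AT1G72900 was not called (adjusted p = 0.055 by limma without wild type array 4). AT5G41740, a full TIR-NBS-LRR receptor, was well expressed throughout, at 5.41 to 5.49 in wild type arrays 1 to 3, 9.41 in wild type array 4 and 5.47 to 6.24 in the arrays labelled fbn5-1. The other members of this class were AT1G72910, AT1G63860, AT5G58120, AT2G32140, AT5G46490 and AT5G22690, with steps in wild type array 4 of 2.15 to 3.73 and fbn5-1 differences of -0.34 to 0.37.

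Calcium and lipid sensing was represented by 8 members. AT4G27280 is described above. AT3G10300, an EF-hand protein too, read 4.33, 4.14 and 3.93, then 7.71 in wild type array 4, then 3.84, 3.43, 3.83 and 3.76, so its fbn5-1 values lay below wild type arrays 1 to 3. AT1G11960 belongs to the OSCA family of stress-gated calcium channels, and read 3.81, 3.81 and 3.74, then 6.73, then 3.50, 3.69, 3.44 and 3.46. AT5G66650, of the calcium uniporter family, had a step of 3.38, and the C2-domain protein SRC2, whose domain binds lipid in the presence of calcium, one of 3.13. The EF-hand gene AT4G27280 and the EF-hand gene AT3G10300 thus had fbn5-1 differences of opposite sign, 1.13 and -0.42. AT3G10300 was not called (adjusted p = 0.068 by limma without wild type array 4). AT2G26190, AT3G29000 and AT3G16510 completed the class, with steps of 2.56 to 3.30.

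The 12 transcription regulators were mostly AP2/ERF and VQ-motif proteins, 4 of each. VQ proteins bind WRKY factors and change their activity. AT1G19210, an AP2/ERF factor of the DREB group, read 1.46, 1.27 and 1.56 in wild type arrays 1 to 3, 6.89 in wild type array 4 and 1.40, 1.96, 1.37 and 1.42 in the arrays labelled fbn5-1. It had the largest step of the class, 5.46, from a signal that was dim in all 7 other arrays. AT2G22880, a VQ protein, read 2.80, 2.92 and 3.16, then 8.34, then 2.85, 3.85, 3.17 and 3.77. AT3G56880, a VQ protein as well, started from 6.34 to 6.44 and reached 9.84, among the brightest values of any member. AT1G21326, the third VQ protein, stepped by 4.28 and had an fbn5-1 difference of -0.61, while AT2G22880 had 0.45. The values of AT2G22880 overlapped wild type arrays 1 to 3, and it was not called (adjusted p = 0.21 by limma without wild type array 4). AT3G22275, a jasmonate ZIM-domain repressor that dampens jasmonate responses, read 1.05, 1.22 and 1.14, then 4.20, then 1.60, 1.34, 1.03 and 1.15. AT5G21960, AT1G64380, AT1G12890, AT1G17147, AGL93 and the NAC factor AT3G12910 had steps of 2.18 to 3.34.

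Among 8 kinases and phosphatases, the largest step was that of AP2C1 (AT2G30020), a type 2C phosphatase that inactivates stress-activated mitogen-activated protein kinases. It read 3.08, 3.13 and 3.08 in wild type arrays 1 to 3, 8.24 in wild type array 4, and 3.31, 3.63, 3.58 and 3.76 in the arrays labelled fbn5-1. The fbn5-1 arrays were all slightly higher, by 0.47 on average, or 9.20% of the step on the log2 scale. AT3G62260, a type 2C phosphatase as well, stepped by 3.22. The kinases were AT1G18390, AT1G67470, AT3G59350, PTI1-4, the Raf-like AT3G46930 and the receptor kinase AT1G56140, with steps of 2.02 to 2.79. PTI1-4 had the lowest fbn5-1 difference of the class, -0.38, and AT1G67470 the highest, 0.50.

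The 9 ubiquitin ligases and F-box proteins, which select other proteins for breakdown, had fbn5-1 levels close to those of wild type arrays 1 to 3. PUB19, a U-box ligase that dampens abscisic acid and drought responses, read 1.81, 1.76 and 1.72, then 5.39 in wild type array 4, then 1.62, 1.51, 1.81 and 1.65. The RING-finger gene AT5G66070 was bright everywhere, at 7.72, 7.87 and 7.74, then 9.90, then 7.57, 7.92, 7.86 and 7.76. Its fbn5-1 difference was 0.00 (SE 0.10 by limma), with overlapping groups. AT1G24580 differed most, with an fbn5-1 difference of 0.60. Its values overlapped wild type arrays 1 to 3, and it was not called (adjusted p = 0.116 by limma without wild type array 4). The others were the RING genes AT1G14200, AT1G26800 and AT1G20823 and the F-box genes AT2G27310, AT3G03030 and AFR, with steps of 2.13 to 3.21. AFR, known from phytochrome A signalling, had a second probe set that read 6.40, 6.34 and 5.87, then 5.90 in wild type array 4, a difference of -0.30 against 2.51 for its member probe set. Only 3 member loci had a second one-gene probe set, and none of these reached the step the rule asked for. That of AT5G20220 differed by 0.27 in wild type array 4, against 3.57 for its member probe set, and that of AT1G18390 by 1.20 against 2.79.

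The 13 cell wall and secreted proteins had the lowest median step. AT4G20830 and AT4G20860 encode oxidases of the berberine-bridge type, some of which oxidise the cell wall fragments that serve as danger signals. AT4G20830 read 3.40, 3.50 and 3.52, then 7.19 in wild type array 4, then 3.68, 4.11, 4.22 and 4.19. AT4G20860 read 3.40, 3.93 and 4.16, then 6.14, then 4.29, 5.04, 4.73 and 4.38. In both, every array labelled fbn5-1 was above wild type arrays 1 to 3, and wild type array 4 was higher still. The aspartyl protease genes AT1G03220, AT3G59080 and AT5G37540 had steps of 2.86, 2.63 and 2.23. The class also held the lectin-type genes AT1G78820, AT5G18470 and AT1G78850, the matrix metalloproteinase AT1G24140, the pectin methylesterase AT3G10720, and AT5G58090, AT2G41640 and AT1G49490, with steps of 2.03 to 3.04.

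Transport and membrane organisation counted 7 members. AT1G61890, an efflux protein of the MATE family, read 3.13, 2.43 and 2.80, then 7.79 in wild type array 4, then 2.91, 3.05, 3.25 and 3.48. DTX50 (AT5G52050), a MATE protein that exports abscisic acid, stepped by 3.90, and the purine permeases PUP18 and PUP15 by 3.97 and 3.17. TET8, a tetraspanin found on vesicles that plant cells release, started bright, at 6.60, 6.62 and 6.83, and read 9.37 in wild type array 4 and 6.22 to 6.85 in the arrays labelled fbn5-1. AT5G52750, of the heavy-metal-associated domain family, had the highest fbn5-1 difference of the class, 0.85, from a dim signal of 1.09 to 1.88 in wild type arrays 1 to 3. AT5G64870, a flotillin-like protein, stepped by 2.25.

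Chaperones, RNA processing and metabolism gave 12 members between them. The chaperone group was small. Fes1A, which binds Hsp70, read 3.09, 2.91 and 3.09, then 5.14 in wild type array 4, then 2.94, 3.69, 3.21 and 3.59, and the small heat shock gene AT1G54050 stepped by 2.0. AT1G61470, a CAF1-type enzyme that shortens the poly(A) tails of messages, stepped by 2.77 from a dim signal. AT5G43620, AT1G66500 and AT1G66080 had steps of 3.53, 2.90 and 2.79. Of the enzymes, AT4G15700, a CC-type glutaredoxin, had the largest spread of any member among the arrays labelled fbn5-1. It read 3.52, 4.24 and 2.78, then 6.53, then 3.01, 2.83, 2.02 and 4.77, with an SD of 1.16 over the arrays labelled fbn5-1. AT1G05675, a UDP-glycosyltransferase listed under its locus number, AT1G55450, AT1G02660, AT2G29300 and AT3G51450 had steps of 2.05 to 3.59 and fbn5-1 differences of -0.27 to 0.20.

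A further 20 members belong to plant families of unclear function. Several came as related pairs, the DUF1645 genes AR781 and AT1G23710, the DUF793 genes AT1G18740 and AT1G74450, and the S40 genes AT5G45630 and AT2G28400. AR781 read 4.60, 5.0 and 5.08, then 8.79 in wild type array 4, then 5.07, 5.42, 5.87 and 5.41, and AT1G23710 had a step of 3.26. The S40 genes had fbn5-1 differences of 0.24 and -1.32. AT5G45630, at 0.24, was very dim and not tested, at 0.75 to 0.95 in wild type arrays 1 to 3. Its values in the arrays labelled fbn5-1, 0.94 to 1.22, overlapped these, so its sign is not read. AT3G02840, an ARM-repeat protein, stepped by 5.0, the glycine-rich genes AT1G07135 and AT3G04640 by 4.93 and 4.38, and the ankyrin-repeat gene AT2G24600 by 4.60. AT5G63130, AT2G27080, AT5G13200, AT1G49450, AT1G59910, AT1G42980, AT5G01760, AT2G23120 and AT3G18950 had steps of 2.06 to 2.87.

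The largest step of all belonged to a locus whose role is not stated here. AT4G29780 read 2.84, 2.71 and 3.41 in wild type arrays 1 to 3, 9.08 in wild type array 4 and 3.74, 3.41, 3.71 and 3.94 in the arrays labelled fbn5-1. Its lowest fbn5-1 value equalled the highest of wild type arrays 1 to 3. AT5G19240 read 3.64, 2.89 and 3.56, then 8.18, then 3.62, 5.21, 4.67 and 3.74, with arrays 2 and 3 well above arrays 1 and 4. AT5G35735 had the highest level of any member, 9.91 in wild type array 4, from 6.83 to 7.21 in wild type arrays 1 to 3. Over these 55 loci the step had a median of 2.88 and the fbn5-1 difference a median of 0.17, with a range of -1.11 to 0.95. The loci not named elsewhere are AT2G25735, AT1G19380, AT5G10695, AT5G64401, AT3G56790, AT2G23321, AT1G05575, AT1G15010, AT3G10930, AT5G20220, AT5G03204, AT1G76600, AT1G69890, AT5G28237, AT5G17350, AT1G59590, AT2G42760, AT4G36500, AT1G20310, AT3G15770, AT3G23170, AT5G11070, AT1G35210, AT5G05300, AT1G67920, AT2G01300, AT5G06890, AT5G58720, AT2G20835, AT3G19030, AT2G37470, AT2G31945, AT2G25460, AT5G41100, AT1G33610 and AT2G17705.

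Position was not used by the rule. Of the 154 members, 29, or 18.8%, lay within 5 protein-coding genes of another member in the gene order of the RefSeq annotation, in 13 groups. No members overlapped each other. Chromosomes 1 to 5 held 60, 27, 25, 9 and 33 members. The share with a near neighbour and the chromosome counts were not computed for all one-gene probe sets. Neither clustering nor a chromosome bias is therefore read from them. The members' genes were short, with a median RefSeq gene length of 1565 bases. Over the 16512 loci of one-gene probe sets with a length it was 1907. Of the members, 70.1% were under 2000 bases, against 53.2% of these loci. No test was made of that difference. The TIR-domain genes AT1G72900, AT1G72910 and AT1G72920 formed one run, and their levels in wild type array 4 were 6.86, 5.40 and 9.53. Their fbn5-1 differences were unequal, at 1.21, 0.37 and 2.0. In the run of AT4G27652, AT4G27654 and AT4G27657, wild type array 4 read 8.44, 7.04 and 9.26, and no fbn5-1 mean was more than 0.50 above wild type arrays 1 to 3. Elsewhere AFR, AT2G24550 and AT2G24600 formed a run, and pairs included AT1G32920 with AT1G32928, AT2G32130 with AT2G32140, AT1G24140 with AT1G24145, and AT1G59865 with AT1G59910. The pair AT1G24140 and AT1G24145 had fbn5-1 differences of 0.28 and -0.43, both with values that overlapped wild type arrays 1 to 3. AT1G24140 was dim and not tested, and AT1G24145 was not called (adjusted p = 0.137 by limma without wild type array 4). Of 10 measured genes that lie between neighbouring members, 9 differed by -0.79 to 0.56 in wild type array 4, among them TPP2, between AT4G20830 and AT4G20860, at -0.08. The other, AT1G78830, between AT1G78820 and AT1G78850, differed by 1.01. Close relatives that lie side by side can share probe matches, and the part of this in the runs was not tested.

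**Figure D5:**
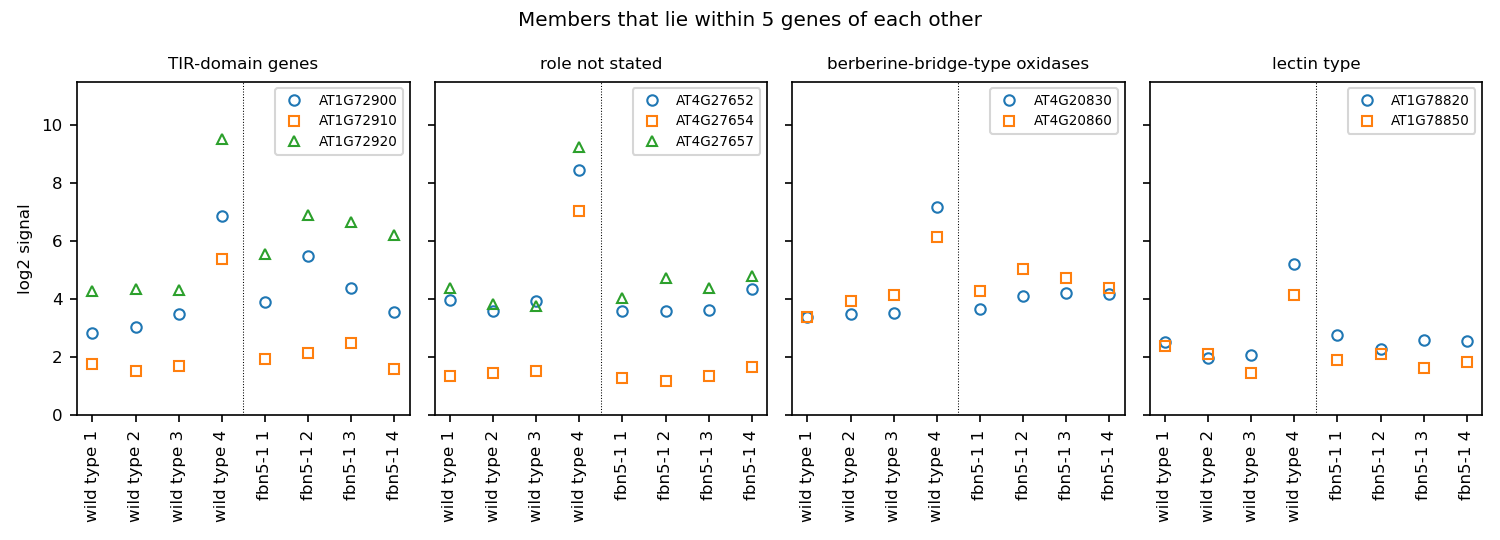
Log2 signal by array for 4 groups of members that lie within 5 genes of each other, 1 mark per array. In each panel the wild type 4 marks are the highest of their gene. AT1G72920 and AT1G72900 have marks for the arrays labelled fbn5-1 between those of wild type arrays 1 to 3 and wild type array 4, and in the AT4G27652 run no fbn5-1 mean exceeds that of wild type arrays 1 to 3 by more than 0.50.

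Other genes of stress and hormone pathways were taken from lists of textbook genes, and part of these lists is given here. Members and names set aside are not counted. In wild type array 4 these were higher by 2.64 for WRKY22, and by 2.07 to 3.63 for PUB19, PUB22, PUB23 and PUB24. The most raised genes of the WRKY and ligase lists were thus removed beforehand. The WRKY list held 7 genes in all. Of the 6 WRKY factors that were not members or set aside, 5 were tested, and in wild type array 4 they lay between -0.66 and -0.15 of wild type arrays 1 to 3. Of 12 further U-box and ATL ligases, 5 were tested, and they ranged from -1.39 to 0.84. Limma called none of these 10 genes in the arrays labelled fbn5-1 with all 8 arrays, or without wild type array 4. At an unadjusted p under 0.05, 1 WRKY factor and 0 ligases passed with all 8 arrays, and 1 of each without wild type array 4. Of 4 tested genes of abscisic acid and dehydration, 3 were at least 1 higher in wild type array 4, and KIN2 and COR47 were called lower in the arrays labelled fbn5-1. Of 7 tested early auxin genes, none was at least 1 higher in wild type array 4, GH3.17 was lower there by -1.47, and GH3.3 was called higher in the arrays labelled fbn5-1. Of 4 tested early immune genes, 0 were at least 1 higher in wild type array 4. One of them, AT5G53730, was called lower in the arrays labelled fbn5-1. The heat shock gene AT5G48570 was 1.59 higher in wild type array 4, and HSP93-III was called higher in the arrays labelled fbn5-1. Both fits, with and without wild type array 4, made each of these calls. The shares of all tested probe sets are given above (8.22% higher and 8.55% lower with all 8 arrays). Lists for MYB factors, ethylene, gibberellin and brassinosteroid, the clock and sugar also held called genes, not described here. For reading the steps, 3.49% of all tested one-gene probe sets were at least 1 higher in wild type array 4 and 2.33% at least 1 lower.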

How the data were processed

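Leaf RNA of 4 wild type and 4 fbn5-1 samples was measured on 8 arrays. The deposited values are log2 signals that the authors made with MAS5, per the submitters' processing notes, and detection calls were not used here. MAS5 gives noisy values to dim probe sets. Of 28583 probe sets, 16746 name 1 gene, 758 several and 11079 none, and 16697 of the first were found in the RefSeq gene table. Values were used as deposited. fbn5-1 was compared with wild type in limma 3.58.1 (R 4.3.3, lmFit and eBayes with trend), with and without wild type array 4, over probe sets whose mean passed the 40th percentile, with Benjamini-Hochberg adjustment. Both limma fits were tested on simulated data whose means and spreads were taken without wild type array 4. No simulated array stood apart, so the effect of such an array on the fit with all 8 arrays was not probed. The number of arrays limits the precision. The members and gene lists were chosen with earlier results of these data known, and list entries that matched a wrong name were dropped. Members picked to be named were the 6 of each class with the largest step, those most different in fbn5-1, the brightest in fbn5-1 and those at the thresholds. Of these, AT1G15010, AT1G59865, AT3G19030 and AT5G41100 stand above without their own values, and some others only within a range. Members outside this rule were named after their values were seen. Alternatives were other normalizations, filters, an offset of 16, other thresholds, a replicate block and leaving out each array.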

Additional observations from a re-analysis of the deposited data

Results flagged for a closer look

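In the arrays labelled fbn5-1, 5 of the members named by rule had 1 array far from the other 3, by Dixon's criterion. Array 2 was high for AT1G19210 (1.96), AT3G04640 (2.36) and AT3G59080 (5.29). Array 3 was low for AT2G28400 (2.96), and array 1 was low for AT2G24550 (4.31). All are log2 levels. Chance gives such a value in about 1 of 20 groups. Over all 154 members, 7.14% had one, against 5.34% of all one-gene probe sets. The wild type group was not tested in this way, because the rule chose array 4 for standing apart.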

How the results depend on the processing

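Many members were dim outside wild type array 4, and 1 array lies behind every step. The rule chose 154 probe sets, 57 with an offset of 16, 235 at a threshold of 1.5, 67 at 3, and 154 to 157 when any array but wild type 4 was left out. Without wild type array 4 it has no value. The median fbn5-1 difference of the members was 0.13, 0.24 at a threshold of 3, 0.081 at 1.5 and 0.071 with the offset, and the cause was not tested. Limma called 2876 probe sets with all 8 arrays, and 1736 to 3854 with 1 left out, fewest without wild type array 2 and most without wild type array 4. It was also more than 1.5 times lower without wild type arrays 1 and 3 (1842 and 1814) and fbn5-1 arrays 1 and 3 (1895 and 1809). Of members it called 0 higher and 1 lower with all 8 arrays. With 1 array left out these counts were 0 to 8 and 0 to 7, the highest without wild type array 4, and the lower count was 0 with 75th percentile centring, the offset, no filter, or no trend. Without wild type array 4 it called 3854, and 2261 to 3896 with a further array left out. Of members it then called 8 higher (2 to 16) and 7 lower (3 to 7). The lower count was 4 with quantile normalization, 75th percentile centring, no filter, or a 60th percentile filter. Fewest were called higher without wild type array 1 or 2 and most without fbn5-1 array 1. Calls for AT1G72920, AT4G27280, AT2G28400, AT1G11210 and AT1G70640 without wild type array 4 remained in every alternative that tested them. The other 10 were lost in some, AT1G21326 in 11 of 14, AT1G50740 in 10, AT3G57450 and AT5G46500 in 9, AT4G20830 and AT4G20860 in 4 and AT3G46600 in 3, and of 13 alternatives AT2G30020 in 7 and AT2G38790 and AT4G29780 in 4. Listed genes that are not members gave 16 calls (7 to 17) and 17 without wild type array 4 (8 to 18). Same-numbered samples did not deviate together (correlations of 0.157, -0.187, -0.0367 and 0.00185), so the numbers were not taken as pairs. With the replicate block the calls numbered 1731, and 3153 without wild type array 4.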
